A study of Mus musculus with 36 samples.

Results

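Mesenchymal stem cells (MSCs) grown from vertebral bone marrow (vBM-MSCs) were compared with MSCs grown from lung (P-MSCs, for pulmonary MSCs) by RNA-seq, gene by gene. The libraries were chosen by their tissue label, which gave 2 of vBM-MSCs and 3 of P-MSCs among the 11 RNA-seq libraries of 4 tissues that were analysed, in a series of 36 samples. The files list 24411 genes, and the 12509 of them with at least 1 CPM (counts scaled to library size) in at least 2 of the 11 libraries were tested. The open chromatin of each tissue, as 1 pooled ATAC-seq peak list, was set beside the RNA. The labels assign 6 samples to each list. These are replicates 1, 2 and 3, each under 2 sample titles that differ in their run string.

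Both groups came from C57BL6/J mice that were 8 weeks old, with no transgene or treatment named. The vertebrae were crushed to release the marrow, whereas the lung was minced and digested with collagenase, so the tissue and the isolation method cannot be told apart. Red blood cells were lysed, and all cells were then grown in MesenCult medium with MesenPure and a Rock inhibitor on collagen I-coated dishes, for up to 3 passages. The tissues were taken from the same 3 mice. The labels do not tie libraries to single mice, and each library was taken as its own replicate. The labelled vBM-MSC replicate 3 was not analysed here.

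MSCs are the adherent stromal cells of a tissue, which can be grown out and turned into bone, cartilage or fat cells. In bone marrow they lie close to the cells that make bone and to blood-forming cells. In the lung they belong to the mesenchyme beside airways and vessels, whose formation in the embryo depends on T-box factors such as Tbx4 and Tbx5. Fibroblast-like cells of adult tissues keep part of the embryo's code of position, the Hox genes, which mark places along the body axis and the limbs.

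The transcriptomes of vBM-MSCs and P-MSCs differed in 4842 genes, 38.7% of those tested (edgeR quasi-likelihood test, Benjamini-Hochberg adjusted p under 0.05). Of the tested genes, 2627 (21.0%) were higher in vBM-MSCs and 2215 (17.7%) were higher in P-MSCs. A difference of at least 3-fold was found for 938 genes (7.50%) in favour of vBM-MSCs and for 603 genes (4.82%) in favour of P-MSCs, and one of at least 10-fold for 406 and 191 genes. The median log2 fold change of vBM-MSCs over P-MSCs over all tested genes, 0.027, lay close to 0. In bulk RNA, fewer cells of a type and less RNA per cell cannot be told apart, and this holds for every gene below.

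The libraries held 30047590 and 35831719 expected counts in vBM-MSCs and between 31089045 and 40517739 in P-MSCs. The vBM-MSC replicates were further apart than the P-MSC replicates. The median gene differed by 0.27 on the log2 scale between the vBM-MSC libraries and by 0.12 between any P-MSC libraries, and 4.72% of genes differed by more than 2-fold between the vBM-MSC libraries, against 0.06% to 0.17% between P-MSC libraries. Many bone genes were much higher in vBM-MSC library 2 than in library 1, so the level in each library is given throughout, as TPM (transcript abundance scaled for length and depth), in the order vBM-MSC 1, vBM-MSC 2, and P-MSC 1, 2 and 3. Log2 fold changes are those of vBM-MSCs over P-MSCs from the edgeR model, with their SE after the sign ±, and each adjusted p is from that test.

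**Figure D1:**
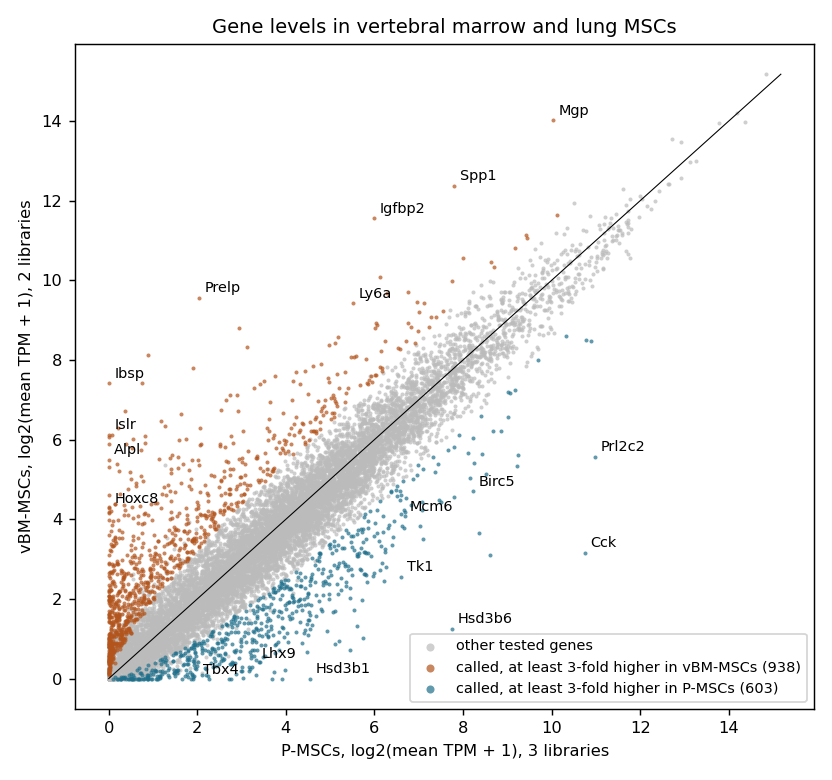
Level of each of the 12509 tested genes in P-MSCs (x axis, 3 libraries) and in vBM-MSCs (y axis, 2 libraries), as log2 of the mean TPM plus 1, with the line of equal level. Orange points are the 938 genes called and at least 3-fold higher in vBM-MSCs, blue points the 603 called and at least 3-fold higher in P-MSCs, and a column of orange points at the left edge has next to no transcripts in P-MSCs.

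Markers were used to check what the cultures held. Both cultures expressed the genes of the surface proteins used to define these cells. Itgb1, which encodes CD29, had 739 and 1051 TPM in vBM-MSCs and 822, 970 and 924 TPM in P-MSCs, with overlapping groups (log2 fold change 0.05 ± 0.15, adjusted p = 0.82). Cd44 was called higher in vBM-MSCs, with a log2 fold change of 0.90, or 0.65 without vBM-MSC library 1. That call was lost in 6 of 20 alternative settings. Ly6a, which encodes Sca-1, had 805 and 571 TPM in vBM-MSCs and 42.3, 46.5 and 46.1 TPM in P-MSCs. Both vBM-MSC libraries lay far above all P-MSC libraries (log2 fold change 4.04 ± 0.27, adjusted p = 1.69e-06). Vcam1 (CD106) had 71.8 and 53.5 TPM in vBM-MSCs against 113, 116 and 117 TPM in P-MSCs, which gave a log2 fold change of −0.79 ± 0.22 (adjusted p = 0.0153) that was −0.51 with adjusted p = 0.13 without vBM-MSC library 2. Of the 11 surface marker genes listed for MSCs, 5 were higher in vBM-MSCs and 1 in P-MSCs, against 21.0% and 17.7% of all tested genes, with a median log2 fold change of 0.09.

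The defining markers of other cell types were at or near 0. The lung epithelial genes Nkx2-1, Sftpc, Sftpb, Sftpa1, Sftpd and Cdh1 had no count in any of the 5 libraries, nor had the macrophage genes Adgre1, C1qb and Fcgr1, the muscle genes Myod1 and Pax7, or the mesothelial genes Wt1, Lrrn4 and Gpm6a. Of the 10 erythroid markers 2 were tested and neither was called, where 38.7% of all tested genes were. The summed level of the 10 was 0.19 to 0.66 TPM in vBM-MSCs and 0.75 to 2.33 TPM in P-MSCs. The pan-blood marker Ptprc stayed at or under 0.35 TPM in each library. Some markers were nevertheless expressed and differed. Krt19, a keratin of epithelial and mesothelial cells, had 12.2 and 8.72 TPM in vBM-MSCs and 53.2, 59.8 and 51.7 TPM in P-MSCs (log2 fold change −2.29 ± 0.52, adjusted p = 0.00468). Mgl2, a lectin gene of macrophages and dendritic cells, was absent from both vBM-MSC libraries but had 14.1, 12.8 and 15.4 TPM in P-MSCs, at least 283-fold higher against a floor of 3 counts over the vBM-MSCs.

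Of the 6 tested macrophage markers 5 were called, against 38.7% of all tested genes. Lyz2 and Fcer1g were higher in vBM-MSCs, and Mgl2, Cd68 and Csf1r were higher in P-MSCs. Cd68 had 0.87 and 2.72 TPM in vBM-MSCs and 6.67, 4.48 and 7.38 TPM in P-MSCs (log2 fold change −1.89 ± 0.48, adjusted p = 0.00888, or 0.0613 without vBM-MSC library 1). Csf1r had 1.16 and 0.61 TPM against 2.64, 2.76 and 2.21 TPM (log2 fold change −1.42 ± 0.34, adjusted p = 0.00691, or −0.96 and 0.0493 without vBM-MSC library 2). Fcer1g was found in vBM-MSC library 2 alone, at 8.21 TPM, and its adjusted p of 0.0275 became 1 without that library. Other lists held fewer called genes. The mesothelial marker Msln was at 0.1 and 0 TPM in vBM-MSCs and at 1.61, 2.94 and 2.35 TPM in P-MSCs. Kdr, an endothelial receptor, was at 0 and 0.23 TPM against 2.84, 2.51 and 2.33 TPM. The summed level of the 9 mesothelial markers in the files was 18.9 and 24.2 TPM in vBM-MSCs and 77.2 to 99.9 TPM in P-MSCs, and that of the 18 macrophage markers was 25.03 and 55.75 TPM against 28.1 to 32.5 TPM. In vBM-MSCs the macrophage sum was mostly Lyz2, at 19.8 and 38.6 TPM against 1.76 to 2.71 TPM in P-MSCs. Acta1, the actin of skeletal muscle that cultured stromal cells can also express, had 495 and 54.5 TPM in vBM-MSCs and 710, 736 and 778 TPM in P-MSCs and made up nearly all of the summed muscle markers. Of the 5 tested surface markers of blood and endothelial cells 2 were higher in P-MSCs, Kdr and Cdh5, against 17.7% of all tested genes. Cdh5 lost its call when either vBM-MSC library was left out. The part of such cells in the differences below was not tested.

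Genes of position along the body differed between the tissues. Of the 39 Hox genes, 26 were tested, 12 were higher in vBM-MSCs and 1 was higher in P-MSCs, against 21.0% and 17.7% of all tested genes, and their median log2 fold change was 2.44. The Hoxc cluster, on chromosome 15, carried most of the difference. All 7 of its tested genes were higher in vBM-MSCs, and the 9 genes of the cluster summed to 45.1 and 62.1 TPM in vBM-MSCs against 1.2 to 1.6 TPM in P-MSCs. The Hoxb cluster, on chromosome 11, was expressed in both, with 73.4 and 100.6 TPM against 56.7 to 65.7 TPM, and none of its 7 tested genes was called.

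Hoxc8, a gene of the thoracic part of the Hox code, had 19.2 and 17.8 TPM in vBM-MSCs and no count in any P-MSC library. It was at least 941-fold higher in vBM-MSCs, with vBM-MSC replicates close to each other. Hoxc6 had 14.45 and 20.9 TPM against 0.39, 0.14 and 0.34 TPM, a log2 fold change of 5.95 ± 0.38 (adjusted p = 1.23e-06). Hoxd8, on chromosome 2, had 2.2 and 3.23 TPM and no count in P-MSCs, at least 94.9-fold. Its exons overlap those of the antisense gene Gm38462, and libraries without strand cannot separate the 2 genes.

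Hox genes of higher paralogue number differed more often. In paralogue groups 4 to 8, 5 of 12 tested genes were higher in vBM-MSCs. In groups 9 to 13, which mark the trunk's lower end and the limbs, 7 of 9 were, with log2 fold changes of 2.58 to 9.27 over the 9 genes. These groupings were made after the values were seen and carry no test of their own.

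**Figure D2:**
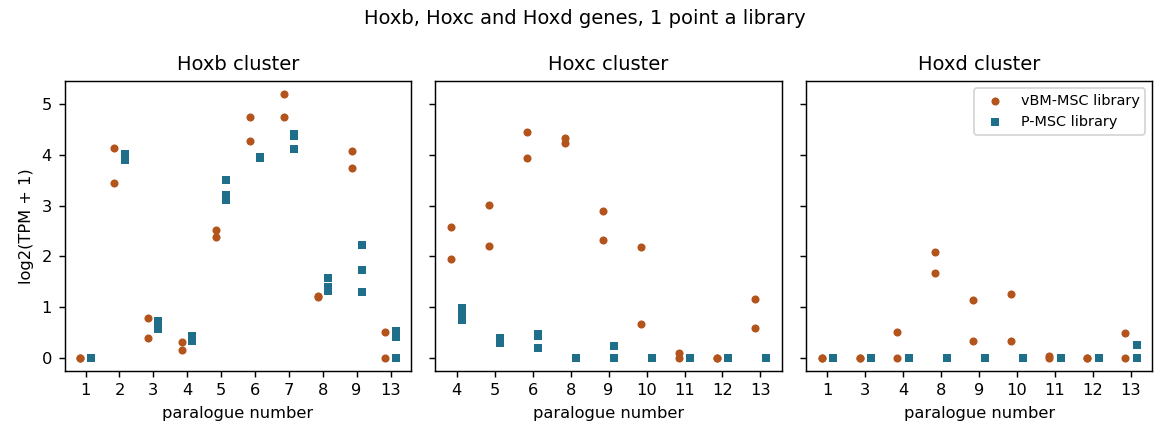
Level of the genes of the Hoxb, Hoxc and Hoxd clusters in each library, as log2(TPM + 1), by paralogue number within the cluster (x axis). Orange circles are the 2 vBM-MSC libraries and blue squares the 3 P-MSC libraries. Most Hoxb genes lie at similar levels in both tissues, while Hoxc genes 5 to 10 and Hoxd genes 8 to 10 are expressed in vBM-MSCs with the P-MSCs at or close to 0.

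Factors of the axial skeleton, which is built from the somites of the embryo, were also higher in vBM-MSCs. Of 18 such genes 10 were tested, 5 were higher in vBM-MSCs and 1 in P-MSCs, against 21.0% and 17.7% of all tested genes. Their median log2 fold change was 2.18. When either vBM-MSC library was left out, Pax9 and Zic4 of the 5 fell under the CPM filter and were not tested. Pax3, the gene that was higher in P-MSCs, then lost its call. Pax1, a factor that patterns the vertebrae and their discs, had 17.85 and 13.85 TPM in vBM-MSCs and 0.6, 0.49 and 0.63 TPM in P-MSCs (log2 fold change 4.87 ± 0.85, adjusted p = 0.000959). Its relative Pax9 had 1.51 and 2.78 TPM against 0.05, 0.25 and 0.09 TPM, with all vBM-MSC values above all P-MSC values (log2 fold change 4.12 ± 1.02, adjusted p = 0.0079). An exon of Pax9 overlaps Slc25a21 on the other strand. In femoral marrow MSCs, the other marrow of the series, Pax1 had a mean of 1.1 ± 1.2 TPM (SD, n = 3) and Pax9 of 0.32 ± 0.14 TPM (SD, n = 3). Foxc2 had 28.0 and 27.5 TPM in vBM-MSCs against 13.7, 11.98 and 10.6 TPM (log2 fold change 1.28 ± 0.19, adjusted p = 0.000316).

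Pax3, a factor of the dermomyotome and of neural crest, went the other way. It had no count in vBM-MSCs and 1.24, 0.75 and 1.27 TPM in P-MSCs, and its adjusted p of 0.015 became 0.0608 without vBM-MSC library 1 and 0.0617 without library 2. Lhx9, a LIM homeobox gene, had 0.14 and 0 TPM in vBM-MSCs and 8.45, 10.01 and 8.59 TPM in P-MSCs. All P-MSC values lay above both vBM-MSC values (log2 fold change −6.48, or −12.26 without vBM-MSC library 1 and −5.36 without library 2, adjusted p at most 0.00224 in every alternative setting).

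Transcription factors of the lung mesenchyme were higher in P-MSCs, while signalling genes of the same list were higher in vBM-MSCs. Of 16 genes 13 were tested, 6 were higher in P-MSCs and 4 in vBM-MSCs, against 17.7% and 21.0% of all tested genes, with a median log2 fold change of −1.03. Tbx4 had 0.02 and 0 TPM in vBM-MSCs and 5.73, 6.98 and 8.77 TPM in P-MSCs (log2 fold change −9.39 ± 1.07, adjusted p = 5.42e-05, or −8.33 without vBM-MSC library 2). Tbx5 had no count in vBM-MSCs and 2.04, 2.41 and 3.43 TPM in P-MSCs, with an adjusted p of 0.000837. Tcf21, a factor of lung and other visceral mesenchyme, had no count in vBM-MSCs and 1.44, 0.24 and 0.9 TPM in P-MSCs (adjusted p = 0.00876). Tbx2, Tbx3 and Osr1 were the other 3 that were higher in P-MSCs, and Foxf1 missed the test with 12.7 and 6.24 TPM against 20.4, 21.5 and 21.2 TPM (adjusted p = 0.133).

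The 4 genes of this list that were higher in vBM-MSCs encode secreted signals. Wnt2 had 29.1 and 30.7 TPM in vBM-MSCs and 0.62, 0.95 and 0.53 TPM in P-MSCs (log2 fold change 5.50 ± 1.16, adjusted p = 0.0031). Rspo2, an amplifier of Wnt signalling, had 15.2 and 14.5 TPM against 1.22, 0.8 and 0.93 TPM (log2 fold change 3.99 ± 0.39, adjusted p = 2.08e-05). In both genes the vBM-MSC replicates were close to each other. Bmp4 (log2 fold change 2.69) and Fgf10 (1.81) were the others.

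Open chromatin at these genes differed as well. In the pooled peak lists, regions with a −log10 q of at least 7 were compared, and a region was called found in 1 list only when no region of the other tissue's list overlapped it by even 1 base. Regions were assigned to the nearest transcription start within 100 kb. Of the vBM-MSC regions nearest a Hox gene, 15 of 40 (37.5%) were found in the vBM-MSC list only, against 2 of 25 P-MSC regions (8.0%) found in the P-MSC list only. For the axial skeleton factors these counts were 18 of 41 (43.9%) and 3 of 24 (12.5%), and for the lung mesenchyme genes 6 of 33 (18.2%) and 17 of 52 (32.7%). Over all regions the shares were 18.6% in the vBM-MSC list and 20.3% in the P-MSC list. Each list pools its replicates, so none of these shares has a replicate error.

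Sequences of 2 such regions are shown because each lies at a gene of position that is expressed in 1 tissue and next to absent from the other. They are the plus strand of GRCm38 around the summit, with exon bases left out, in lower case with matches to TGANTCA, the core of the AP-1 site, or to TGTGGT, the core of the RUNX site, in capitals on either strand. The first lies in chr1:138842445-138842684, at a promoter of Lhx9, with its summit 91 bases from a start site and a fold enrichment of 5.89 in P-MSCs, and the second in chr5:119887435-119887734, between genes and 52922 bases from the nearest start of Tbx5, with 17.29 in P-MSCs. The Tbx5 region, unlike the other, was picked after its value was seen.
Lhx9 promoter, P-MSC list only: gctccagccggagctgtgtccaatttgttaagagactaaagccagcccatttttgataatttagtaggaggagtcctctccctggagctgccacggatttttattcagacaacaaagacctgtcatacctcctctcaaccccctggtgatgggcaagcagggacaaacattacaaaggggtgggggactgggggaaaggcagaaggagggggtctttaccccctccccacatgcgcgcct
Tbx5 distal region, P-MSC list only: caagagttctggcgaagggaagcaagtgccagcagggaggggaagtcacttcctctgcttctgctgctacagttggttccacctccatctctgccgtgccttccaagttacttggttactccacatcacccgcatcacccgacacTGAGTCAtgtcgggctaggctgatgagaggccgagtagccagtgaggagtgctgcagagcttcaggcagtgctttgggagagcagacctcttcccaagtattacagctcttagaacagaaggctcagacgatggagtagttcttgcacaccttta

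Another region of the Lhx9 promoter had a fold enrichment of 9.93 in P-MSCs, and the strongest one in vBM-MSCs, at 4.42, lay below the threshold. The Tbx5 region holds 1 AP-1 match and no RUNX match, and the Lhx9 region holds neither. All 4 P-MSC regions assigned to Tbx5 were found in the P-MSC list only, and no vBM-MSC region was assigned to it. Pax9 had 7 vBM-MSC regions, 4 of them in that list only, although its promoter was open in both tissues, with fold enrichments of 26.9 and 23.2. The promoters of Hoxc8 and Hoxc10 were open in the vBM-MSC list only, and that of Pax3 in the P-MSC list only. Hoxc10 RNA was at 0.59 and 3.55 TPM in vBM-MSCs and without a count in P-MSCs.

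Genes of bone formation were higher in vBM-MSCs, and the vBM-MSC libraries lay far apart in them. Of 28 osteoblast genes 24 were tested and 16 were higher in vBM-MSCs, none in P-MSCs, against 21.0% and 17.7% of all tested genes. All 16 differed by at least 3-fold, and the median log2 fold change of the list was 4.31, or 4.26 with the genes without a count in one tissue set at the bound that 3 counts give. The list summed to 2236 and 10706 TPM in the vBM-MSC libraries and to 462 to 576 TPM in P-MSCs. Of the 16 called genes, 14 were higher in vBM-MSC library 2 than in library 1 and 12 were more than 2-fold higher. Without library 2, 13 genes were called.

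Sp7, the factor that commits cells to the osteoblast fate, had 2.62 and 9.71 TPM in vBM-MSCs and 0.07, 0.04 and 0.16 TPM in P-MSCs (log2 fold change 6.07 ± 0.94, adjusted p = 0.000884, or 4.97 without vBM-MSC library 2). Runx2, the factor upstream of it, did not separate the groups, with 2.55 and 4.54 TPM against 2.3, 2.96 and 2.94 TPM (adjusted p = 0.369). Among the enzymes and matrix proteins of mineralising bone, Alpl, the alkaline phosphatase, had 11.6 and 76.9 TPM and no count in P-MSCs, at least 2590-fold, or at least 635-fold without vBM-MSC library 2. Ibsp, bone sialoprotein, had 16.9 and 321 TPM against 0.02, 0 and 0 TPM. The P-MSCs held 1 count of Ibsp in all, and the ratio of the tissues' CPM was 22400 with a counting interval from 4020 to 886000. Without vBM-MSC library 2 this ratio was 2080 (interval 372 to 82200).

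Spp1, osteopontin, was abundant in both tissues and had 1562 and 9037 TPM in vBM-MSCs against 284, 160 and 220 TPM in P-MSCs. Both vBM-MSC libraries lay above all P-MSC libraries, and the log2 fold change of 4.59 ± 0.61 (adjusted p = 0.000162) was 3.0 without vBM-MSC library 2. Bglap and Bglap2, near-identical osteocalcin genes that share reads, had 4.1 and 73.7 TPM and 4.97 and 111 TPM in vBM-MSCs and no count in P-MSCs. Their calls (adjusted p = 0.00506 and 0.0078) were lost without vBM-MSC library 2 (0.0846 and 0.129). Of the genes of osteocytes, the cells that bone encloses, Dmp1 had 0.8 and 17.2 TPM against at most 0.2 TPM in P-MSCs, while Mepe had no count in any library and Sost reached 0.11 TPM in 1 vBM-MSC library.

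Genes of bone turnover on the same list, and osteoclast markers, were unequal in how close the vBM-MSC libraries lay. Tnfrsf11b, which encodes osteoprotegerin, the soluble inhibitor of osteoclast formation, had 298 and 243 TPM in vBM-MSCs and 49.1, 40.5 and 41.0 TPM in P-MSCs (log2 fold change 2.73 ± 0.21, adjusted p = 4.06e-06). Its ligand Tnfsf11 was at 0 and 0.97 TPM against 0.34 to 0.8 TPM and did not pass the test. The collagenase gene Mmp13 had 46.5 and 336 TPM against 13.6, 11.4 and 12.6 TPM, and its log2 fold change of 3.94 was 2.07 without vBM-MSC library 2. Of the 5 tested osteoclast markers 2 were higher in vBM-MSCs and none in P-MSCs, against 21.0% and 17.7% of all tested genes. Ctsk, a protease that stromal cells also make, had 140 and 252 TPM against 58.4, 63.1 and 70.0 TPM (log2 fold change 1.67 ± 0.24, adjusted p = 0.000234), while Dcstamp and Calcr had no count in any library. Atp6v0d2, a proton pump subunit of osteoclasts, had 0.11 and 0.83 TPM in vBM-MSCs and no count in P-MSCs (adjusted p = 0.00345). It was at least 27.4-fold higher in vBM-MSCs, or at least 5.88-fold without vBM-MSC library 2. Its call was lost in 1 of 19 alternative settings, and its promoter was open in the vBM-MSC list only.

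**Figure D3:**
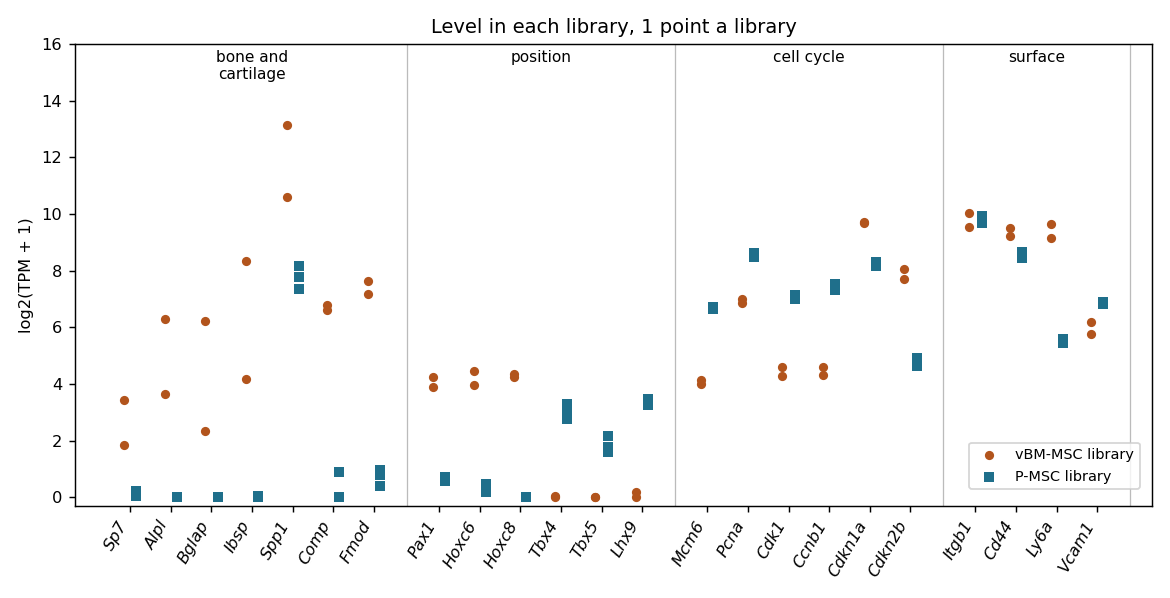
Level of 23 genes in each library, as log2(TPM + 1), in 4 sets: bone and cartilage, position, cell cycle and surface proteins. Orange circles are the 2 vBM-MSC libraries and blue squares the 3 P-MSC libraries. The vBM-MSC libraries lie far apart for the bone genes Alpl, Bglap, Ibsp and Spp1 and close together for the position and cell cycle genes, while the P-MSC libraries lie closer together for most genes shown.

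Cartilage genes were higher in vBM-MSCs, but not the main cartilage proteoglycan. Of 24 listed genes in the files 13 were tested and 8 were higher in vBM-MSCs, none in P-MSCs, against 21.0% and 17.7% of all tested genes, with a median log2 fold change of 4.30. Without vBM-MSC library 2, 5 were called. Comp, a cartilage and tendon matrix protein, had 109 and 97.5 TPM in vBM-MSCs and 0.87, 0 and 0 TPM in P-MSCs (log2 fold change 8.42 ± 1.20, adjusted p = 0.00025). Sox9, the chief factor of cartilage, had 11.6 and 12.3 TPM against 2.87, 1.53 and 2.27 TPM (log2 fold change 2.50 ± 0.26, adjusted p = 2.69e-05). Both genes had close vBM-MSC replicates. Acan, aggrecan, reached only 0.14 TPM in any of the libraries and was not tested, and Col2a1 had 4.92 and 75.1 TPM against 4.21, 0 and 0 TPM, so that its groups were close to overlapping (adjusted p = 0.0573).

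The small leucine-rich proteoglycans, which bind and space collagen fibrils, were nearly all higher in vBM-MSCs. Of 14 genes 11 were tested and 10 were higher in vBM-MSCs, none in P-MSCs, against 21.0% and 17.7% of all tested genes, with a median log2 fold change of 6.21. Prelp had 938 and 576 TPM in vBM-MSCs and 3.24, 2.41 and 3.63 TPM in P-MSCs (log2 fold change 8.04 ± 0.76, adjusted p = 1.65e-05). Fmod, fibromodulin, had 143 and 196 TPM against 0.96, 0.33 and 0.73 TPM (log2 fold change 8.01 ± 0.85, adjusted p = 3.31e-05). Dcn, decorin, had 25.8 and 90.4 TPM against 4.56, 3.86 and 5.73 TPM (log2 fold change 3.64 ± 0.49, adjusted p = 0.000168, or 2.64 without vBM-MSC library 2). Bgn, biglycan, was abundant in both tissues, with 1754 and 2022 TPM against 1376, 1458 and 1416 TPM, and differed little (log2 fold change 0.49 ± 0.14, adjusted p = 0.0149). Lum, lumican, had 1.96 and 37.9 TPM against 0.08, 0.23 and 0 TPM, and its adjusted p of 0.00822 became 0.109 without vBM-MSC library 2.

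Collagens differed by type. The main fibrillar collagen of bone, type I, did not pass the test, since Col1a1 had 725 and 957 TPM in vBM-MSCs and 523, 565 and 501 TPM in P-MSCs (log2 fold change 0.74 ± 0.35, adjusted p = 0.121). These groups did not overlap, and Col1a1 was called in 3 of the alternative settings. Col3a1 had 108 and 167 TPM against 4.46, 5.65 and 6.93 TPM (log2 fold change 4.67 ± 0.34, adjusted p = 2.86e-06), and Col8a1 had 337 and 327 TPM against 28.45, 34.3 and 29.2 TPM (log2 fold change 3.52 ± 0.16, adjusted p = 2.84e-07). In total 10 of 23 tested collagens were higher in vBM-MSCs and 2 in P-MSCs, against 21.0% and 17.7% of all tested genes. The 2 that were higher in P-MSCs, Col4a3 and Col4a4, encode chains of the basement membranes of lung and kidney. Col4a3 had 0.17 and 0.23 TPM in vBM-MSCs and 0.9, 2.35 and 1.5 TPM in P-MSCs, and neither was called when either vBM-MSC library was left out.

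Elastic fibre genes and metalloproteinases with their inhibitors also differed. Lox, the lysyl oxidase that cross-links elastin and collagen, had 2539 and 1985 TPM in vBM-MSCs and 690, 673 and 676 TPM in P-MSCs (log2 fold change 1.82 ± 0.27, adjusted p = 0.000338). Of 21 tested elastic fibre genes 10 were higher in vBM-MSCs and 3 in P-MSCs (median 0.89), against 21.0% and 17.7% of all tested genes. The P-MSC count of Fbln1, Loxl4 and Ltbp1 fell to 1 when either vBM-MSC library was left out. Eln, elastin itself, was low in both, at 0.18 and 0.34 TPM against 1.01, 0.27 and 0.56 TPM (adjusted p = 0.639). Of 20 tested metalloproteinases and inhibitors 13 were higher in vBM-MSCs and none in P-MSCs (median 1.31), against the same shares. Timp3, an inhibitor bound to the matrix, had 1759 and 1271 TPM against 241, 264 and 258 TPM (log2 fold change 2.67 ± 0.22, adjusted p = 6.28e-06). Mgp, an inhibitor of calcification, was the most abundant gene that was at least 3-fold higher in vBM-MSCs, with 15214 and 17832 TPM against 1021, 836 and 1274 TPM (log2 fold change 4.07).

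Smooth muscle genes were called in both directions at shares near those of all tested genes. Of 21 tested genes 5 were higher in vBM-MSCs and 5 in P-MSCs, against 21.0% and 17.7% of all, with a median log2 fold change of −0.19, and the vBM-MSC count fell to 2 without vBM-MSC library 1. Acta2, smooth muscle actin and a general marker of cultured stromal cells, had 5771 and 4257 TPM in vBM-MSCs and 2885, 3311 and 3244 TPM in P-MSCs (log2 fold change 0.77 ± 0.16, adjusted p = 0.00258). Myh11, the smooth muscle myosin of mature muscle cells, was low and went the other way, with 0.45 and 0.79 TPM against 3.41, 5.05 and 4.38 TPM (log2 fold change −2.71 ± 0.47, adjusted p = 0.000913). Des, desmin, followed Myh11, with 0.8 and 1.18 TPM against 5.33, 8.61 and 6.94 TPM.

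Genes of DNA replication and mitosis were nearly all higher in P-MSCs. Of 47 DNA replication genes, all tested, 45 were higher in P-MSCs and none in vBM-MSCs, against 17.7% and 21.0% of all tested genes. The median of their log2 fold changes was −2.58. Of 38 mitosis genes, all tested, 37 were higher in P-MSCs and 1 in vBM-MSCs, against the same shares of all tested genes. The median log2 fold change of the mitosis list was −3.12. For all 47 and for those 37 genes, every P-MSC library lay above both vBM-MSC libraries. The same held for 4286 of all 12509 tested genes. The replication list summed to 744 and 785 TPM in vBM-MSCs and to 2746 to 2910 TPM in P-MSCs, and the mitosis list to 445 and 427 TPM against 2654 to 2849 TPM.

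Between the vBM-MSC libraries, 4 of the 45 called replication genes and 4 of the 37 mitosis genes were more than 2-fold higher in library 2. Mcm6, a part of the helicase that opens DNA for replication, had 15 and 16.7 TPM in vBM-MSCs and 105, 100.7 and 98.7 TPM in P-MSCs (log2 fold change −2.60 ± 0.14, adjusted p = 6.24e-07). Birc5, survivin, which acts in chromosome segregation, had 26.6 and 23.4 TPM against 305, 281 and 309 TPM (log2 fold change −3.50 ± 0.19, adjusted p = 6.24e-07). Mki67, the gene of the proliferation marker Ki-67, had 0.16 and 0.47 TPM against 5.0, 6.64 and 6.3 TPM (log2 fold change −4.19 ± 0.41, adjusted p = 2.07e-05, or −5.06 without vBM-MSC library 2). The replication genes that missed the test were Rpa3 and Rrm1, with log2 fold changes of −0.46 and −0.60. Pttg1, securin, was the exception among the mitosis genes, with 77.2 and 89.2 TPM in vBM-MSCs and 60.3, 62.1 and 59.1 TPM in P-MSCs (log2 fold change 0.52 ± 0.14, adjusted p = 0.00994).

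Inhibitors of the cell cycle and targets of p53 were mostly higher in vBM-MSCs. Of 20 genes, all tested, 11 were higher in vBM-MSCs and 4 in P-MSCs, against 21.0% and 17.7% of all tested genes, with a median log2 fold change of 0.88. Cdkn2b, which encodes the inhibitor p15, had 207 and 267 TPM in vBM-MSCs and 23.6, 28.9 and 27.1 TPM in P-MSCs (log2 fold change 3.23 ± 0.16, adjusted p = 4.55e-07). Cdkn1a, which encodes p21, had 844 and 823 TPM against 302, 312 and 283 TPM (log2 fold change 1.57 ± 0.11, adjusted p = 2.29e-06). Cdkn2a had 41.0 and 75.4 TPM against 12.8, 17.9 and 13.7 TPM (log2 fold change 2.04 ± 0.23, adjusted p = 5.72e-05). The gene of p53 itself, Trp53, was higher in P-MSCs, at 92.0 and 104 TPM against 206, 202 and 187 TPM (log2 fold change −0.94 ± 0.14, adjusted p = 0.000363). The promoter of Cdkn2b was open in both peak lists, with fold enrichments of 20.2 and 22.4. Passage number, given only as an upper limit for all cultures, cannot be told apart from the tissue.

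**Figure D4:**
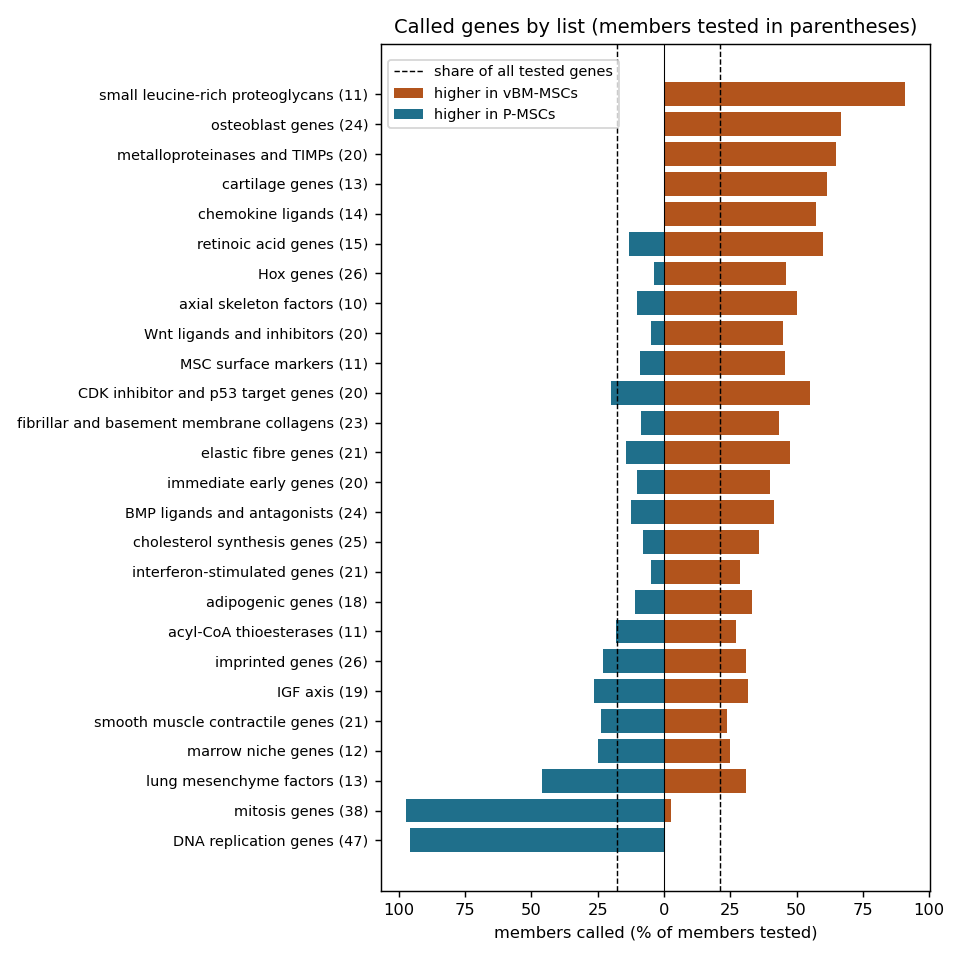
Percent of the tested members of each list that were called higher in vBM-MSCs (orange bars, to the right) or in P-MSCs (blue bars, to the left), for lists with at least 10 tested members, with the number tested in parentheses. The dashed lines are the shares of all tested genes, 21.0% and 17.7%. The replication and mitosis lists extend almost wholly to the left and the proteoglycan, osteoblast and cartilage lists wholly to the right.

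In the insulin-like growth factor axis, whose signals act on bone and many other tissues, 6 of 19 tested genes were higher in vBM-MSCs and 5 in P-MSCs, against 21.0% and 17.7% of all tested genes, with a median of 0.69. The 6 that were higher in vBM-MSCs are secreted proteins, and the 5 that were higher in P-MSCs are 3 RNA-binding proteins, the receptor Igf1r and the adaptor Irs2. Without vBM-MSC library 1 the P-MSC count fell to 2, Igf2bp1 and Igf2bp2, and the call of Igf1r was lost when either vBM-MSC library was left out (adjusted p = 0.0665 and 0.113). Igfbp2, a binding protein that holds the growth factors, had 3914 and 2091 TPM in vBM-MSCs and 57.3, 60.6 and 70.6 TPM in P-MSCs (log2 fold change 5.70 ± 1.08, adjusted p = 0.00162, or 5.04 and 0.00859 without vBM-MSC library 1). The ligand gene Igf1 had 185 and 67.0 TPM against 16.4, 14.0 and 19.1 TPM (log2 fold change 3.16 ± 0.58, adjusted p = 0.00128, or 2.14 and 0.0186 without vBM-MSC library 1). Igf2bp1, Igf2bp2 and Igf2bp3, which bind growth factor mRNAs, were higher in P-MSCs, with log2 fold changes of −3.24, −2.03 and −1.60, and that of Igf2bp2 was −2.74 without vBM-MSC library 2.

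Wnt ligands and inhibitors were higher in vBM-MSCs in 9 of 20 tested genes and in P-MSCs in 1, against 21.0% and 17.7% of all tested genes, with a median of 3.12, or 2.62 with genes at their bound. Wif1, a secreted Wnt inhibitor, had 10.1 and 24.5 TPM in vBM-MSCs and no count in P-MSCs. Its promoter was nevertheless open in both peak lists, with fold enrichments of 11.8 and 11.4. Sfrp1, another inhibitor, had 21.0 and 26.8 TPM against 1.93, 1.18 and 0.78 TPM (log2 fold change 4.27 ± 0.41, adjusted p = 1.71e-05). Dkk2 was the one inhibitor that was higher in P-MSCs, at 0 and 0.69 TPM against 8.84, 10.5 and 9.32 TPM (log2 fold change −4.73 ± 1.30, adjusted p = 0.0139). Its log2 fold change was −3.79 without vBM-MSC library 1 and −12.49 without library 2, where the remaining library was at 0 TPM. Wnt5a, the most widely studied non-canonical ligand, was alike in level, with 28.4 and 29.1 TPM against 28.6, 27.9 and 26.6 TPM (log2 fold change 0.13 ± 0.14, adjusted p = 0.499).

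Among 24 tested bone morphogenetic protein ligands, antagonists and targets, 10 were higher in vBM-MSCs and 3 in P-MSCs, against 21.0% and 17.7% of all tested genes, with a median of 1.14, and the vBM-MSC count fell to 6 without vBM-MSC library 2. Of the 10, Gdf10 fell under the CPM filter in that fit and was not tested. Fst, follistatin, had 128 and 134 TPM in vBM-MSCs and 34.0, 24.0 and 36.3 TPM in P-MSCs (log2 fold change 2.14 ± 0.25, adjusted p = 7.18e-05). The antagonist Grem1 was higher in P-MSCs, with 32.2 and 89.4 TPM against 157, 173 and 168 TPM (log2 fold change −1.41 ± 0.33, adjusted p = 0.00586, or −0.91 without vBM-MSC library 1 and −2.18 without library 2). Bmp2 had 1.02 and 7.68 TPM against 0.78, 1.02 and 0.17 TPM, and its adjusted p of 0.0104 became 0.396 without vBM-MSC library 2. Bmp3 rested on that library alone, with 0 and 0.89 TPM against at most 0.04 TPM, and its log2 fold change of 4.49 turned to −3.36 without it.

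Genes by which marrow stroma supports blood-forming cells were called in both directions. Of 12 tested niche genes 3 were higher in vBM-MSCs and 3 in P-MSCs, against 21.0% and 17.7% of all tested genes, with a median of 1.01 where that of all tested genes was 0.03, and without vBM-MSC library 2 only Ebf1 and Grem1 kept their calls, 1 in each direction. Cxcl12, the chemokine that retains stem cells in the marrow, had 373 and 351 TPM in vBM-MSCs and 452, 376 and 454 TPM in P-MSCs (log2 fold change −0.33 ± 0.24, adjusted p = 0.301). Ebf1, a factor of marrow stroma as well as of B cells, had 13.9 and 10.5 TPM against 1.18, 1.83 and 1.65 TPM (log2 fold change 3.07 ± 0.32, adjusted p = 2.87e-05). Lepr, a marker of marrow stroma in the animal, stayed at or under 0.23 TPM in each library. Of 14 tested genes of a list of chemokines and inflammatory mediators, 8 were higher in vBM-MSCs and none in P-MSCs, against the same shares of all tested genes, with a median of 1.92, or 1.86 at the bound. Of the 8, Il6, a cytokine, and Tnfaip6, a hyaluronan-binding protein, are not chemokines. Ccl7, which attracts monocytes, had 394 and 294 TPM against 42.0, 32.2 and 26.2 TPM (log2 fold change 3.46 ± 0.40, adjusted p = 6.19e-05).

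Retinoic acid genes took opposite directions by the enzyme that makes the acid. Of 15 tested genes 9 were higher in vBM-MSCs and 2 in P-MSCs, against 21.0% and 17.7% of all tested genes, with a median of 1.06. Aldh1a2, the main enzyme of the embryo, had 0.73 and 1.01 TPM in vBM-MSCs and 20.4, 17.3 and 21.2 TPM in P-MSCs (log2 fold change −4.41 ± 0.28, adjusted p = 1.43e-06). Its relative Aldh1a3 had 5.87 and 5.71 TPM against 0.72, 0.55 and 0.37 TPM (log2 fold change 3.47 ± 0.32, adjusted p = 1.51e-05). The binding proteins also split, since Crabp2 was at 31.5 and 20.8 TPM in vBM-MSCs against at most 0.88 TPM in P-MSCs, while Crabp1 was at 0.34 and 0 TPM against 13.8, 16.6 and 13.8 TPM. The Crabp1 call (adjusted p = 0.011) was lost without vBM-MSC library 2 (0.0587). Cyp26b1, which degrades retinoic acid, had 11.6 and 4.8 TPM against 0, 0.01 and 0.09 TPM (log2 fold change 8.02 ± 0.93, adjusted p = 5.98e-05, or 7.12 without vBM-MSC library 1).

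Of 21 tested interferon-stimulated genes 6 were higher in vBM-MSCs and 1 in P-MSCs (median 1.31), a share called of 33.3% against 38.7% of all tested genes. Of 20 immediate early genes, which respond within minutes to handling or serum, 8 were higher in vBM-MSCs and 2 in P-MSCs (median 0.66), against 21.0% and 17.7% of all tested genes, and the vBM-MSC count fell to 5 when either vBM-MSC library was left out.

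In the lists of lipid metabolism, the shares called lay near the 38.7% of all tested genes, at 44.0% of cholesterol synthesis genes, 44.4% of adipogenic genes and 45.5% of acyl-CoA thioesterases. Of 25 tested cholesterol synthesis genes 9 were higher in vBM-MSCs and 2 in P-MSCs (median 0.27), with Tm7sf2 alone among the 9 past 3-fold. Of 18 tested adipogenic genes 6 were higher in vBM-MSCs and 2 in P-MSCs (median 0.29), and the vBM-MSC count fell to 2 without vBM-MSC library 2. Of 11 tested acyl-CoA thioesterases 3 were higher in vBM-MSCs and 2 in P-MSCs (median 0.24). Fabp4, a fatty acid binding protein of fat cells, had 22.0 and 58.8 TPM against 3.84, 2.68 and 2.71 TPM (log2 fold change 3.72 ± 0.58, adjusted p = 0.000477, or 3.04 without vBM-MSC library 2), and Cebpa, Cd36, Plin4, Zfp467 and Pparg were the others that were higher in vBM-MSCs. Of the genes that mark mature fat cells, Plin1, Lep and Cfd had no count in any library, whereas Cidec was at 0.37 TPM and Adipoq, of the niche list, at 3.87 TPM in vBM-MSC library 2 and at 0 in the other 4 libraries.

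Imprinted genes, of which the cell reads 1 parental copy, included large differences in both directions around a median of 0.09. Of 26 tested 8 were higher in vBM-MSCs and 6 in P-MSCs, against 21.0% and 17.7% of all tested genes. Dio3, an enzyme that inactivates thyroid hormone, had 25.7 and 11.6 TPM in vBM-MSCs and no count in P-MSCs, at least 700-fold or, without vBM-MSC library 1, at least 450-fold. It had none in femoral marrow MSCs either. Its promoter was open in the vBM-MSC list only. Peg3, a zinc finger gene, had 0.36 and 0.9 TPM against 11.99, 13.9 and 14.25 TPM (log2 fold change −4.35 ± 0.63, adjusted p = 0.000286, or −5.04 without vBM-MSC library 2), and the amino acid transporter gene Slc38a4 had 0.07 and 0.18 TPM against 11.99, 9.98 and 15.05 TPM (log2 fold change −6.56 ± 1.01, adjusted p = 0.000431, or −7.34 without vBM-MSC library 2).

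Several of the largest single differences lay outside these lists. Cck, which encodes the gut and brain hormone cholecystokinin, was among the 5 most abundant of the genes at least 3-fold higher in P-MSCs, with 15.6 and 0.3 TPM in vBM-MSCs and 1759, 1653 and 1748 TPM in P-MSCs (log2 fold change −7.62, or −12.47 without vBM-MSC library 1 and −6.56 without library 2). Prl2c2, a prolactin family gene with near-identical copies, had 13.5 and 79.8 TPM against 2209, 1800 and 2072 TPM. The steroid enzyme genes Hsd3b1 and Hsd3b6, close relatives that may share reads, were higher in P-MSCs, Hsd3b1 at least 508-fold with no count in vBM-MSCs and 22.3 to 22.5 TPM in P-MSCs. In vBM-MSCs one of the largest was Islr, a stromal cell surface gene of the immunoglobulin and leucine-rich repeat families, with 58.6 and 79.05 TPM and no count in P-MSCs, at least 3160-fold. Il1rn, the interleukin-1 receptor antagonist, had 14.5 and 32.6 TPM and no count in P-MSCs, at least 1300-fold, or at least 773-fold without vBM-MSC library 2.

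The peak lists were then compared as a whole. At the same threshold the vBM-MSC list held 50763 regions and the P-MSC list 55648, of which 9438 (18.6%) and 11271 (20.3%) were found in that list only. Regions of 1 list were rarely at promoters, taken as 1 kb on either side of a start. Promoters held 3.8% of the vBM-MSC-only regions and 3.0% of the P-MSC-only regions, against 28.9% and 27.3% of the shared regions. Of the vBM-MSC-only regions 62.5% overlapped a region of the femoral marrow list and 46.6% one of the adipose list, while for the P-MSC-only regions these shares were 48.5% and 70.8%.

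Genes next to the vBM-MSC-only regions were more often higher in vBM-MSCs than genes next to the P-MSC-only regions, and the reverse held for genes higher in P-MSCs. The nearest start within 100 kb was that of a tested gene for 4228 vBM-MSC-only and 5270 P-MSC-only regions. The gene was at least 3-fold higher in vBM-MSCs for 15.8% of the vBM-MSC-only and 6.8% of the P-MSC-only regions, and at least 3-fold higher in P-MSCs for 3.2% and 7.2%. Of all tested genes 7.50% and 4.82% differed by as much in these directions, and near shared regions the shares were 8.9% and 4.3% in the vBM-MSC list and 8.2% and 4.5% in the P-MSC list. At promoters the lists were much alike. A promoter was counted as open in both lists where 1 list had a summit past the threshold and the other a summit of any strength. Of 11519 tested genes with a start on chromosomes 1 to 19, 90.4% had an open promoter in both lists, 0.677% (78 genes) in vBM-MSCs only and 0.399% (46 genes) in P-MSCs only. Of the 874 such genes at least 3-fold higher in vBM-MSCs, 48 (5.49%, exact binomial 95% interval 4.08% to 7.22%) were open in vBM-MSCs only, 2 in P-MSCs only and 24.9% in neither. Of the 538 at least 3-fold higher in P-MSCs, 12 (2.23%, interval 1.16% to 3.86%) were open in P-MSCs only and 2 in vBM-MSCs only. The intervals cover counting error only.

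Short motifs within 100 bases of the summit differed between the regions of each list. AP-1, the dimer of Fos and Jun proteins, binds TGANTCA, which was present on either strand in 52.0% of the 10932 P-MSC-only regions outside promoters and in 18.9% of the 9078 vBM-MSC-only ones, with shared regions outside promoters at 40.2% in the vBM-MSC and 45.8% in the P-MSC list. The share over all regions past the threshold, promoters included, was 33.4%. The core of the RUNX site, TGTGGT, was present in 19.2% of P-MSC-only and 25.4% of vBM-MSC-only regions outside promoters, with shared regions outside promoters at 20.7% and 21.4%, and in 18.1% of all regions, promoters included. The share of C/EBP sites (TTGCNNAA) was 9.2% and 14.0%, and that of EBF sites (CCCNNGGGA) was 2.1% and 5.2%, in the same order, while GATA sites (AGATAA) were found in 12% and 8.3%. Shared regions outside promoters had 10.7% and 11.4% for C/EBP, 3.5% and 4.2% for EBF and 8.2% and 7.4% for GATA, in the P-MSC and vBM-MSC lists. Over all regions, promoters included, the shares were 9.6%, 4.3% and 7.0%. With regions of a −log10 q of at least 20, an alternative chosen after the data were seen, the AP-1 shares were 58.3% and 18.7% and the RUNX shares 20.1% and 29.4%. The mean GC content of these windows was 45.3% in P-MSC-only and 46.0% in vBM-MSC-only regions.

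The RNA of the factors was set beside the motifs. Fos had 23.9 and 24.7 TPM in vBM-MSCs and 4.13, 5.3 and 5.99 TPM in P-MSCs (log2 fold change 2.33 ± 0.28, adjusted p = 7.18e-05), and Fosb, Junb and Jund were also higher in vBM-MSCs, where the AP-1 motif was rarer. Fosl1, the most abundant Fos family member in P-MSCs, had 81.6 and 104 TPM against 86.6, 87.8 and 82.9 TPM (adjusted p = 0.378), and Jun and Fosl2 were not called either. For C/EBP, EBF and GATA, some factors were higher in the tissue whose own regions held the motif more often, whereas for TEAD, as for AP-1, they were not. TEAD sites (GGAATG) were found in 24.6% of vBM-MSC-only and 22.1% of P-MSC-only regions outside promoters and in 20.3% of all regions, promoters included. Tead2 (log2 fold change −0.98, adjusted p = 0.00237) and Tead4 (log2 fold change −1.22, adjusted p = 0.0378) were higher in P-MSCs. Cebpa had 1.9 and 4.13 TPM in vBM-MSCs and 0.15, 0.02 and 0.05 TPM in P-MSCs (log2 fold change 5.33 ± 0.67, adjusted p = 0.000111), and Cebpg was higher in vBM-MSCs as well (log2 fold change 0.71, adjusted p = 0.0239), while Cebpb and Cebpd were not called. Ebf1 was higher in vBM-MSCs, as given above, and Gata6 had 0.13 and 0.23 TPM in vBM-MSCs against 2.67, 3.81 and 4.19 TPM in P-MSCs (log2 fold change −4.18 ± 0.99, adjusted p = 0.00609). Of the RUNX genes, Runx1 and Runx2 were not called, while their partner Cbfb (log2 fold change 0.61, adjusted p = 0.0264) was higher in vBM-MSCs. Runx3 was called as well, but rested on vBM-MSC library 2, with 0.04 and 1.48 TPM against 0, 0.1 and 0 TPM. A match to a motif is not a bound site.

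**Figure D5:**
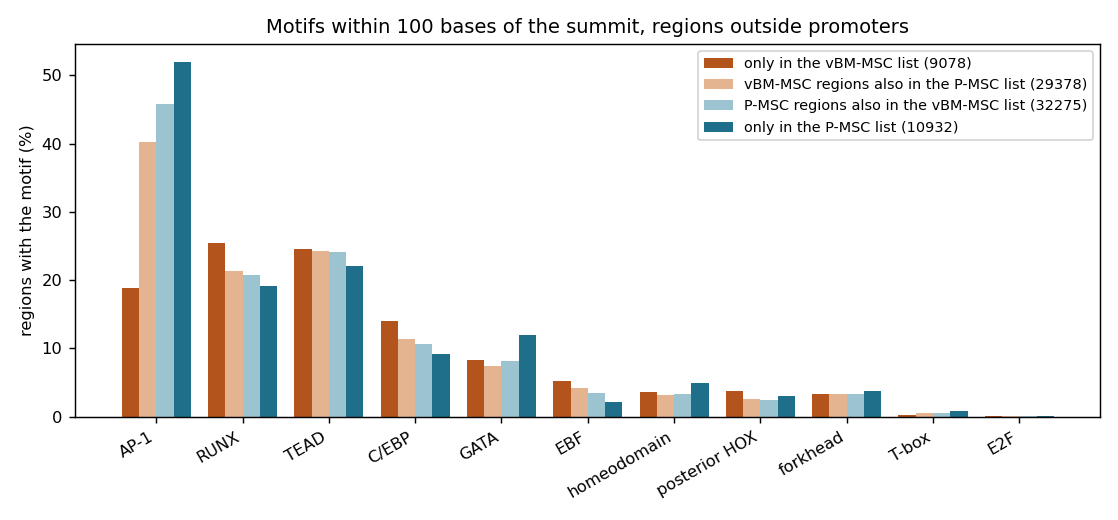
Percent of regions outside promoters that hold each motif within 100 bases of the summit (y axis), for regions of the vBM-MSC list only, regions of either list that are shared with the other, and regions of the P-MSC list only, with the number of regions in parentheses. For AP-1 the bars rise from 18.9% of the vBM-MSC-only to 52.0% of the P-MSC-only regions, with the shared regions at 40.2% and 45.8%, and for RUNX they fall from 25.4% to 19.2%.

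The pair of regions below shows these motifs at a matrix gene and a growth factor binding protein gene that were higher in vBM-MSCs. The first, chr4:141011133-141011432, lies in the first kb of Mfap2, a gene of the microfibrils of elastic fibres, with a fold enrichment of 9.2 in the vBM-MSC list and no region in the P-MSC list. Mfap2 had 23.7 and 23.4 TPM in vBM-MSCs and 1.4, 1.29 and 1.62 TPM in P-MSCs (log2 fold change 4.13 ± 0.50, adjusted p = 8.06e-05). The second, chr1:72839498-72839797, lies in an intron of Igfbp2 with a fold enrichment of 21.34 in the vBM-MSC list and was chosen after its value was seen. Capitals mark AP-1 and RUNX matches as before, and the plus strand of GRCm38 is printed.
Mfap2, vBM-MSC list only: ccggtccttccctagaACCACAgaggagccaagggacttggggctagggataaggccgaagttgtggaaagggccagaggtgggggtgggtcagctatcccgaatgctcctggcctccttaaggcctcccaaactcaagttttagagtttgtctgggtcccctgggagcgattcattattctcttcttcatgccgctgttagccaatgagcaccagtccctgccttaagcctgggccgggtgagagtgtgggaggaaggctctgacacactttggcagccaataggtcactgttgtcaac
Igfbp2 intron, vBM-MSC list only: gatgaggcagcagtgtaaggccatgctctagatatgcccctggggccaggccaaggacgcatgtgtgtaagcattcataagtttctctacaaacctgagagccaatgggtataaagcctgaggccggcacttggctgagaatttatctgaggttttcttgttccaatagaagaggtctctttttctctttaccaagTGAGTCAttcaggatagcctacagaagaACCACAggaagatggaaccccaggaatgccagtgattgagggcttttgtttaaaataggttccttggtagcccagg

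The Mfap2 sequence holds 1 RUNX match and the Igfbp2 sequence 1 AP-1 and 1 RUNX match. Open chromatin and RNA did not always go the same way. Aldh1a3 had a promoter region in the P-MSC list only, with a fold enrichment of 8.09, although its RNA was higher in vBM-MSCs. The bone genes Alpl, Ibsp, Sp7 and Bglap had no promoter region past the threshold in either list, but Alpl had 3 regions in its introns that were found in the vBM-MSC list only.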

How the data were processed

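RNA-seq libraries were made from bulk cultures with the Smart-seq2 method, which primes on poly(A) tails with oligo-dT, keeps no strand and amplifies by PCR without molecular identifiers, so genes whose exons overlap cannot be separated, near-identical copies share reads, and histone mRNAs are poorly captured. The authors deposited, per library and gene, an expected count and TPM. The authors' pooled ATAC-seq peak files give for each region a fold enrichment over background, a deposited −log10 q-value and −log10 p-value, a score and the summit offset from the region's start, in GRCm38 coordinates. No unit was rescaled.

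After rounding of the expected counts, genes with at least 1 CPM in at least 2 of 11 libraries were tested with edgeR 4.0.16 (R 4.3.3) after TMM scaling, using the quasi-likelihood test with all 4 tissues in the model and Benjamini-Hochberg adjustment over all tested genes. Levels are the deposited TPM, which was not used in that test. limma 3.58.1 and DESeq2 1.42.0 were alternatives. The test was checked on simulated counts. Regions were compared with Python 3.11.15 and pandas 2.3.3, and exact binomial intervals came from scipy 1.17.1. Sequences are RefSeq's GRCm38, with exon bases excluded from the windows.

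The members, the 33 gene lists and the tests were chosen with earlier results of these data known. The genes named are the 12 largest differences in each direction (called, at least 3-fold, mean TPM of at least 5, no overlap of the groups), the first 4 genes of each list, up to 3 of the largest called genes per list and direction, the 5 most abundant in each direction, and members named to account for a count; some of these are not reported here. Where a gene had no count in 1 tissue, a bound was set with a floor of 3 counts over that group. The replicate numbers do not pair the libraries by any label. The p-values measure the spread between these libraries.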

Additional observations from a re-analysis of the deposited data

How the results depend on the processing

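Over the 20 alternative settings (other scaling, filters, models and tools, and each library left out), no gene was called in the opposite direction to its call above. Of the 180 named genes that were called, 135 kept their call in every setting in which they were tested, 27 lost it without vBM-MSC replicate 1 and 28 without vBM-MSC replicate 2. Bmp3 reversed, with a log2 fold change of −3.36 without vBM-MSC replicate 2 (adjusted p = 0.596 in edgeR), and ranged up to 5.69 with each other library left out. Pax9, Zic4, Dio3 and Gdf10 fell under the CPM filter and were not tested when either vBM-MSC library was left out. With each library left out in turn, 3674 to 5205 genes differed, 1990 to 2803 were higher in vBM-MSCs and 1684 to 2402 in P-MSCs, and 5 to 10 cartilage genes, 13 to 16 osteoblast genes, 8 to 10 proteoglycans and 9 to 14 Hox genes were higher in vBM-MSCs. On log2(TPM + 1) with limma, 505 genes were at least 3-fold higher in vBM-MSCs, against 938, since the pseudocount shrinks the difference of low genes. The share of regions found in the vBM-MSC list only was 5.4% with a −log10 q of at least 20 and 29.7% when only regions past the threshold in the other list counted as shared, and for the P-MSC list 7.0% and 35.6%.

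With the replicate number as a block, 4606 genes differed, 2459 higher in vBM-MSCs and 2147 higher in P-MSCs. The deviations of same-numbered vBM-MSC and P-MSC libraries from their tissue means had an r across genes of 0.017 and 0.028. The deviations of the 2 vBM-MSC libraries mirror each other, and a low r can also arise where mice differ little. These values therefore cannot decide whether the numbers pair the samples. With 2 vBM-MSC libraries the error of each vBM-MSC mean rests on the spread of the other tissues, and the fits that leave one out assume that the lone library varies like the rest.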
